A study of Arabidopsis thaliana with 12 samples.

Results

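The phi and tau classes of glutathione S-transferases were followed across the RNA-seq libraries of whole Arabidopsis seedlings. Members were the rows of the FPKM table that carried the identifiers listed for the classes, which gave 39 genes of 27371, 11 of the phi class and 28 of the tau class. All 39 were found in the table, and 35 passed the filter on low values, all 11 phi and 24 tau members. GSTU3, GSTU12, GSTU15 and GSTU21 did not pass it.

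Glutathione S-transferases join the tripeptide glutathione to electrophilic molecules, among them herbicides, products of lipid oxidation and intermediates of defense metabolism, and the conjugates are then moved into the vacuole. The phi and tau classes are the large plant-specific branches of the family and many of their genes lie side by side on the chromosomes. Several are widely used as stress-inducible marker genes in Arabidopsis, where promoters with TGACG elements, bound by TGA factors of the bZIP family, are known to drive part of that induction.

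The 12 libraries fell into 4 groups of 3, all from seedlings 14 d old in the Columbia-0 background. The Atg3bp1 hrcC and WT hrcC groups had received Pst DC3000 hrcC-, a strain of the bacterium Pseudomonas syringae that cannot deliver effectors through its type III secretion system, and were taken after 24 h. The Atg3bp1 mock and WT mock groups were the controls of each genotype. The mutant was the T-DNA insertion line Atg3bp1-1, a single line, and the replicates were independent biological experiments, as the published text has it, while the labels name only an Atg3bp1 mutant. Each comparison of hrcC with mock asked which members changed with the bacteria, and each comparison of Atg3bp1 with WT asked whether their levels differed by genotype.

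The values are FPKM, fragments scaled to transcript length and to the mapped total of the library, so levels can be compared between genes, but the read counts behind the value of each gene are unknown. Library totals lay between 428556 and 494126 FPKM, of which the members took between 0.233% and 0.615% of that sum. The single locus AT2G01021 took between 4.03% and 31.6%. Each library was rescaled by its upper quartile before testing, with factors between 0.866 and 1.199. This step was planned in place of the quartile normalization of the study. AtG3BP1 itself (AT5G48650) was at 15.6 ± 2.98 FPKM in the libraries labelled Atg3bp1 hrcC and 13.9 ± 2.63 FPKM in those labelled Atg3bp1 mock (SD, n = 3 each). It was at 0.364 ± 0.0582 FPKM in the libraries labelled WT hrcC and 0.198 ± 0.169 FPKM in those labelled WT mock. The gene was thus high where the label gives a loss-of-function mutant and low where it gives WT, and every genotype below is therefore the genotype on the label. Whether the labels were exchanged was not tested. An exchange would turn the sign of every genotype difference and interaction given here and swap the names of both responses. In whole seedlings, fewer cells of a type and less RNA per cell cannot be told apart.

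GSTF6, GSTF10, GSTF11 and GSTU4 were the members called higher with hrcC in both genotypes. Of these, the stretch before the gene start is shown for GSTF10 and GSTU4, 250 bases each. The sequences are from the RefSeq TAIR10.1 genome, read 5′ to 3′ on the strand of the gene. Capitals mark TGACG, the core bound by TGA factors, and TTGAC, the core of the W-box bound by WRKY factors, each on either strand, and CACGTG, the G-box, was searched too. GTCAA is thus a W-box core on the other strand. GSTF10 (chromosome 2, 13141040 to 13141289, plus strand) and GSTU4 (chromosome 2, 12627892 to 12628141, minus strand) overlapped no exon of another gene there.
GSTF10: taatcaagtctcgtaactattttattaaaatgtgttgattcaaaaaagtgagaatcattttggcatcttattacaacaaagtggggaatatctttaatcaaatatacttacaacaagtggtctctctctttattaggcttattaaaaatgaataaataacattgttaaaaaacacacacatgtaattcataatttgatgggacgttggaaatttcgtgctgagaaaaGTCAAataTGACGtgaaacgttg
GSTU4: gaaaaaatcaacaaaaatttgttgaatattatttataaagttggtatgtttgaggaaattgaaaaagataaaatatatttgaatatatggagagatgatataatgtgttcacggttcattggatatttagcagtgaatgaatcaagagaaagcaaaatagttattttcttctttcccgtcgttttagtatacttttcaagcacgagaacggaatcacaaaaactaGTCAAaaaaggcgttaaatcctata
The GSTF10 window held 1 TGACG at 15 bases and 1 TTGAC at 23 bases before the gene start, and the GSTU4 window held 1 TTGAC at 25 bases. The window of GSTF11 held none of the motifs and overlapped an exon of AT3G03180. Over the members, TGACG was present in 14 of 39 windows, against 18.6% of the 27443 windows of all protein-coding genes. It was present in 3 of 11 phi and 11 of 28 tau windows. Of the 8 members called higher in at least 1 genotype, 4 held it. Of the 12 called higher in the mean response over both genotypes, given below, 4 held it, against 10 of the 27 other members. TTGAC was present in 23 of 39, against 44.9% of all windows, and CACGTG in 3 of 39, against 6.5%. GSTU7 held 3 TGACG copies, within 61 bases of its start, and was not called in any comparison. Its window overlapped an exon of AT2G00850, and that of the called GSTU5, with 1 TGACG, an exon of AT2G29452. A match of letters is a description and was not tested as a binding site.

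The members formed 9 tandem clusters, which held 27 of them, while 12 stood alone. A cluster was a run of members of 1 chromosome with at most 5 annotated genes between neighbours. The cluster with the most members was GSTU1 to GSTU7 on chromosome 2 (12617936 to 12632538, 14.6 kb), and the widest was GSTU19 to GSTU23 on chromosome 1 (29467412 to 29488007, 20.6 kb). GSTU24 to GSTU26 lay on chromosome 1 (5869543 to 5876620), and the remaining clusters were pairs. Among phi members only GSTF6 and GSTF7 (chromosome 1, 658578 to 662475) and GSTF9 and GSTF10 (chromosome 2, 13138882 to 13142676) were paired. GSTU17 and GSTU18 overlap each other by their annotated ends on the same strand, so reads there could be counted for either gene.

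Close copies limit how far single members can be told apart. Coding sequences of tau members in 1 cluster were between 56.63% and 85.55% identical, with a median of 74.37%, against a median of 54.79% for tau members of different clusters. A phi and a tau member were between 42.96% and 50.64% identical. The closest pairs were GSTF2 and GSTF3 at 94.52% and GSTF6 and GSTF7 at 94.29%. GSTF6 and GSTF7 also share 17 of 528 windows of 100 coding bases without a difference, so reads within them could come from either gene, and their values are uncertain to that extent. The windows with the most and the fewest differences are shown, with capitals at the bases that differ between both genes, of which the first had 12 and the second had 0. They span coding bases 167 to 266 of each gene, then bases 310 to 409 of GSTF6 and 313 to 412 of GSTF7, counted from the start codon.
GSTF6: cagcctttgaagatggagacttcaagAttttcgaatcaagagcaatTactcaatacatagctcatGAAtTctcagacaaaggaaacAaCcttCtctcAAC
GSTF7: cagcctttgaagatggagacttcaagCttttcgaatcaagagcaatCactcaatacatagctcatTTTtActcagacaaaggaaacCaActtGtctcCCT
GSTF6: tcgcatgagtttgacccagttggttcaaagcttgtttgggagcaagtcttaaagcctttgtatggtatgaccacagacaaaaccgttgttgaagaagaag
GSTF7: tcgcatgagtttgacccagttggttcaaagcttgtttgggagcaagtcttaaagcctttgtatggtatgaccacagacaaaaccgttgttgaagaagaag
GSTF2 and GSTF3 shared no such window.

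In level, a few members made up most of each class. GSTF9 (mean over all libraries 413 FPKM), GSTF10 (202 FPKM) and GSTF2 together gave 72.4% of the mean phi level. GSTU19 (384 FPKM), GSTU20 (153 FPKM) and GSTU5 (87.7 FPKM) gave 58.5% of the mean tau level. GSTF9 and GSTU19 lay at the 99.6th percentile of all genes. At the other end, GSTF3 averaged 1.93 FPKM, GSTF13 2.54 FPKM and GSTF14 3.38 FPKM, and the untested GSTU15 was listed at 0 in 11 of 12 libraries. The untested members had means of 0.343 FPKM for GSTU12, 0.301 FPKM for GSTU3 and 0.0826 FPKM for GSTU21.

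The summed level of the phi class was higher with hrcC in both genotypes, while that of the tau class overlapped. Phi members summed to 1303 ± 93.2 FPKM in Atg3bp1 hrcC and 691 ± 255 FPKM in Atg3bp1 mock, and to 1479 ± 164 FPKM in WT hrcC and 763 ± 189 FPKM in WT mock (SD, n = 3 each). Tau members summed to 978 ± 125 FPKM in Atg3bp1 hrcC and 856 ± 233 FPKM in Atg3bp1 mock, and to 1253 ± 103 FPKM in WT hrcC and 1183 ± 183 FPKM in WT mock. The phi class thus took 57.2% of the summed level of both classes in Atg3bp1 hrcC against 44.0% in Atg3bp1 mock, and 54.1% in WT hrcC against 38.9% in WT mock. No phi sum of an hrcC library, the lowest being 1204 FPKM, overlapped with that of a mock library, the highest being 896 FPKM. Within the mock groups, replicate 3 was the lowest library for both classes in both genotypes, with phi sums of 406 FPKM in Atg3bp1 and 544 FPKM in WT.

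**Figure D1:**
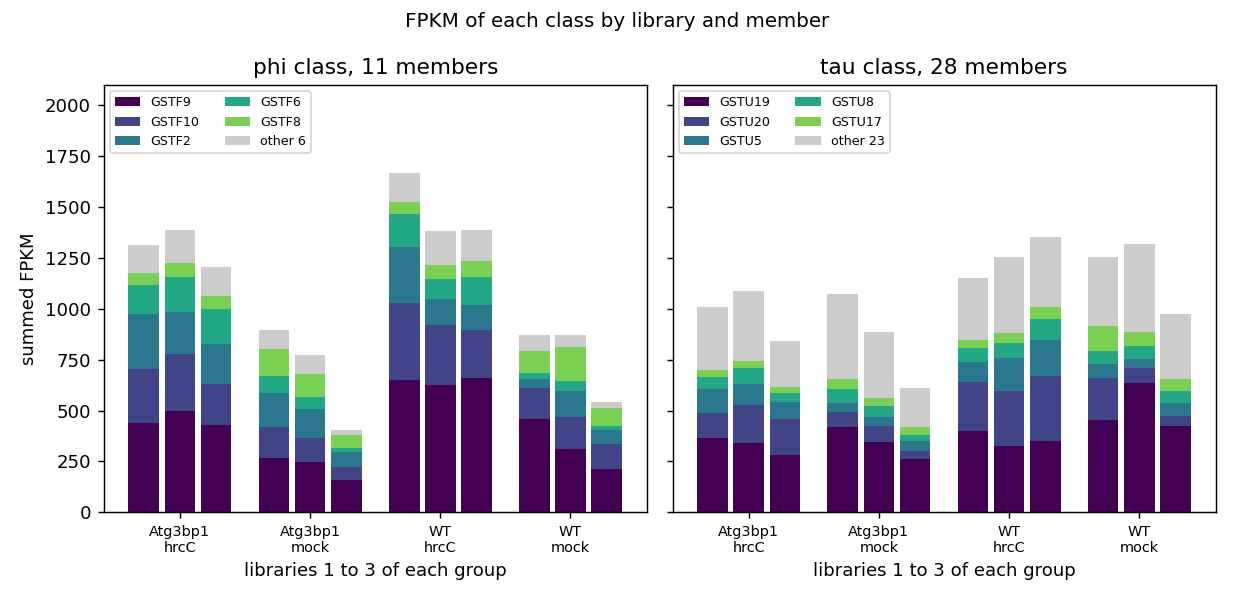
Summed FPKM (vertical axis) of the 11 phi members (left) and the 28 tau members (right) in each of the 12 libraries, stacked by the 5 members of highest mean level and the rest of the class. Phi sums of hrcC libraries, 1204 FPKM at the lowest, all stand above those of mock libraries, 896 FPKM at the highest, while tau sums overlap.

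With hrcC, 6 of the 35 tested members were called higher in WT (17.1%, against 2.87% of all 17158 tested genes) and 6 in Atg3bp1 (17.1%, against 2.57%). Calls needed a limma p of at most 0.05 after adjustment over all tested genes, and a difference of 2-fold or more. None was called lower in either genotype, where 0.321% of all genes were in WT and 0.554% in Atg3bp1. At an unadjusted p under 0.05, limma gave 13 members higher in Atg3bp1 (7.13% of all genes) and 13 in WT (9.08%), and 2 lower in Atg3bp1 (7.96%) and 7 in WT (8.59%). The 6 called in WT were GSTF6, GSTF7, GSTF10, GSTF11, GSTU4 and GSTU5, and the 6 called in Atg3bp1 were GSTF6, GSTF10, GSTF11, GSTU4, GSTU6 and GSTU11. Of these, GSTU11 had passed the filter only through its hrcC libraries. The phi class held 4 of the WT calls and 3 of the Atg3bp1 calls among its 11 members, and the tau class held 2 and 3 among its 24. The median log2 fold change was 1.09 over the phi members in Atg3bp1 and 1.04 in WT. Over the tau members it was -0.00054 in Atg3bp1 and 0.10 in WT, and over all tested genes -0.07 in Atg3bp1 and -0.06 in WT. All libraries of hrcC lay above those of mock for 14 members in each genotype, against 9.98% of all genes in Atg3bp1 and 8.45% in WT. They lay below for 4 members in Atg3bp1 and 6 in WT, against 17.1% and 8.42% of all genes.

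These counts rested on single libraries. The higher calls in Atg3bp1 numbered 2 when any 1 of the 3 Atg3bp1 hrcC libraries or the second Atg3bp1 mock library was left out, and 1 when the third Atg3bp1 mock library was. Those in WT numbered 2 with the second WT hrcC library left out, 1 with the third, and 1 with the third WT mock library left out. In these fits the higher calls over all genes fell too, to between 307 and 359 in Atg3bp1, against 441. In WT they fell to between 376 and 426, against 492. Only the GSTU4 calls were kept in all 25 alternatives of both genotypes.

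GSTU4 (AT2G29460) had the smallest adjusted p of the members in both genotypes. This tau member of the GSTU1 to GSTU7 cluster was at 22.6, 23.5 and 17.1 FPKM in Atg3bp1 hrcC, against 3.28, 1.65 and 0.440 FPKM in Atg3bp1 mock. It was at 10.4, 11.5 and 18.2 FPKM in WT hrcC, against 2.25, 1.67 and 1.70 FPKM in WT mock. All hrcC libraries stood far above all mock libraries. On the log2(FPKM + 1) scale it rose by 3.17 (SE 0.343, adjusted p = 0.000155 in limma) in Atg3bp1 and by 2.27 (SE 0.343, adjusted p = 0.00196) in WT.

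**Figure D2:**
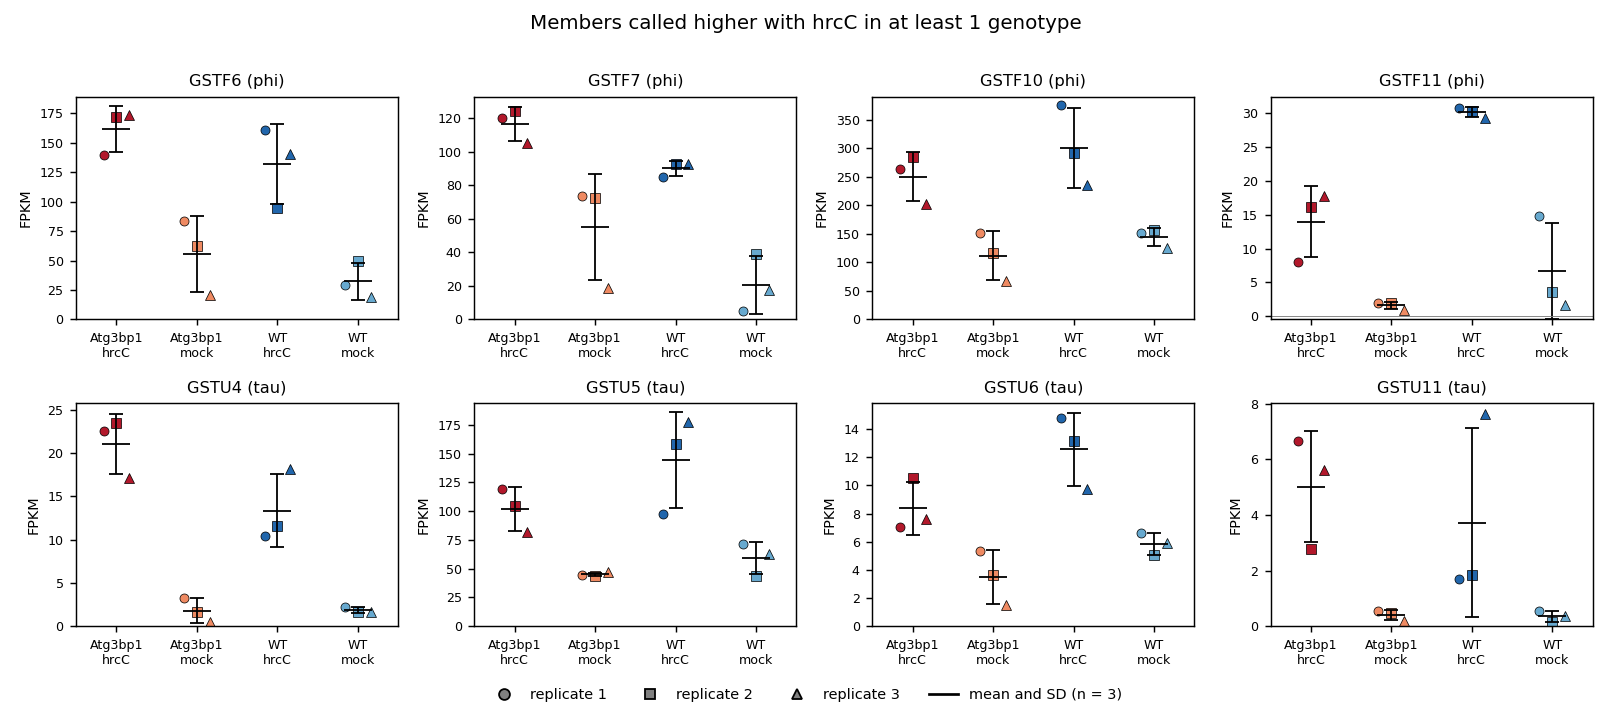
FPKM (vertical axis, each panel with its own scale) in the 3 libraries of each group for the 8 members called higher with hrcC in at least 1 genotype, with points for replicates and bars for the mean and SD. In each panel the hrcC libraries lie above the mock libraries of the same genotype, as for GSTU4, at 10.4 FPKM or more with hrcC and 3.28 FPKM or less in mock. Across genotypes, hrcC and mock libraries overlap only for GSTF11. There Atg3bp1 hrcC goes down to 8.00 FPKM and WT mock up to 14.9 FPKM.

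GSTF6 (AT1G02930) and GSTF7 (AT1G02920) are a tandem pair on chromosome 1, and GSTF6 is known to conjugate glutathione in the synthesis of camalexin, the main phytoalexin of Arabidopsis. GSTF6 was at 139, 172 and 174 FPKM in Atg3bp1 hrcC, against 84.0, 62.2 and 20.7 FPKM in Atg3bp1 mock. It was at 161, 94.5 and 140 FPKM in WT hrcC, against 29.1, 49.7 and 18.9 FPKM in WT mock. It rose in both genotypes, by 1.77 (SE 0.438, adjusted p = 0.0430) in Atg3bp1 and 2.06 (SE 0.438, adjusted p = 0.0186) in WT by limma. GSTF7 was at 120, 124 and 105 FPKM in Atg3bp1 hrcC, against 73.7, 72.5 and 18.4 FPKM in Atg3bp1 mock. It was at 85.1, 92.4 and 92.9 FPKM in WT hrcC, against 4.86, 38.9 and 17.5 FPKM in WT mock. The hrcC libraries did not overlap with mock in either genotype, but only the WT change passed the test (2.49, SE 0.565, adjusted p = 0.0263), with 1.34 in Atg3bp1 (SE 0.565, adjusted p = 0.275). The WT mock libraries of GSTF7 spread widely, and replicate 1 was the lowest of all. The shared coding windows of the pair, printed above, apply to these values.

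GSTF9 (AT2G30860) and GSTF10 (AT2G30870) are the other phi pair, with the highest phi means over all libraries, and GSTF10 is known as a protein that binds the receptor kinase BAK1. GSTF10 was at 264, 285 and 202 FPKM in Atg3bp1 hrcC, against 152, 117 and 66.8 FPKM in Atg3bp1 mock. It was at 375, 292 and 236 FPKM in WT hrcC, against 151.3, 156 and 126 FPKM in WT mock. It rose in both genotypes (limma log2 fold change 1.25, SE 0.262, adjusted p = 0.0176 in Atg3bp1 and 1.04, SE 0.262, adjusted p = 0.0450 in WT). Its neighbour GSTF9 was at 441, 496 and 431 FPKM in Atg3bp1 hrcC, against 266, 248 and 157 FPKM in Atg3bp1 mock. It was at 651, 627 and 660 FPKM in WT hrcC, against 460, 312 and 211 FPKM in WT mock. Here too the hrcC libraries were all higher, and the log2 fold change was 1.09 (SE 0.307, adjusted p = 0.0779) in Atg3bp1 and 1.05 (SE 0.307, adjusted p = 0.0847) in WT, neither past the threshold. Without WT mock replicate 1, the library with 460 FPKM, the WT change of GSTF9 was 1.44 with an adjusted p of 0.00491.

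GSTF11 (AT3G03190), which stands alone on chromosome 3 and is associated with aliphatic glucosinolate synthesis, was at 8.00, 16.1 and 17.8 FPKM in Atg3bp1 hrcC, against 1.91, 1.98 and 0.941 FPKM in Atg3bp1 mock. It was at 30.7, 30.3 and 29.3 FPKM in WT hrcC, against 14.9, 3.54 and 1.75 FPKM in WT mock. It rose in both genotypes (limma log2 fold change 2.53, SE 0.551, adjusted p = 0.0219 in Atg3bp1 and 2.39, SE 0.551, adjusted p = 0.0290 in WT). WT mock replicate 1 stood well above the other mock libraries.

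The remaining called members were tau genes. GSTU5 (AT2G29450) was at 120, 104 and 81.9 FPKM in Atg3bp1 hrcC, against 44.7, 43.9 and 46.8 FPKM in Atg3bp1 mock. It was at 97.4, 159 and 178 FPKM in WT hrcC, against 71.4, 43.6 and 63.1 FPKM in WT mock. The hrcC libraries were higher throughout, and the change was called in WT (limma log2 fold change 1.26, SE 0.304, adjusted p = 0.0371) and not in Atg3bp1 (1.18, SE 0.304, adjusted p = 0.0536). GSTU6 (AT2G29440), the next gene of the cluster, was at 7.02, 10.5 and 7.61 FPKM in Atg3bp1 hrcC, against 5.35, 3.66 and 1.51 FPKM in Atg3bp1 mock. It was at 14.8, 13.2 and 9.73 FPKM in WT hrcC, against 6.60, 5.06 and 5.94 FPKM in WT mock. It was called in Atg3bp1 (1.19, SE 0.289, adjusted p = 0.0394) and not in WT (0.97, SE 0.289, adjusted p = 0.0935). GSTU11 (AT1G69930) was low in mock, at 0.539, 0.458 and 0.190 FPKM in Atg3bp1 and 0.544, 0.151 and 0.367 FPKM in WT. With hrcC it was at 6.66, 2.79 and 5.61 FPKM in Atg3bp1 and 1.69, 1.83 and 7.64 FPKM in WT. The hrcC libraries lay above mock in both genotypes, though spread widely in WT. It was called in Atg3bp1 (2.12, SE 0.415, adjusted p = 0.0115) and not in WT (1.55, SE 0.415, adjusted p = 0.0593). On this scale the fold change of so low a gene is understated. GSTU11 passed the filter of a mean of 1 FPKM only through its hrcC libraries. Its means were 0.396 FPKM in Atg3bp1 mock and 0.354 FPKM in WT mock. Its place among the counted calls thus came from the groups where it is high.

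Several of these calls were lost when 1 library was left out. In WT, the GSTF6 call was lost without WT hrcC replicate 3 or WT mock replicate 3 (adjusted p 0.0683 to 0.0768). That of GSTF7 was lost without WT hrcC 2 or 3 or WT mock 1 or 3 (0.0631 to 0.0928), and that of GSTF11 without WT hrcC 2 or 3 or WT mock 2 or 3 (0.0858 to 0.106). The GSTF10 call was lost without any Atg3bp1 hrcC or WT hrcC library, Atg3bp1 mock 2, or WT mock 2 or 3 (0.0661 to 0.128). The GSTU5 call was lost without any library other than WT hrcC 1 and WT mock 1 (0.0529 to 0.151). In Atg3bp1, the GSTF6 call was lost without any Atg3bp1 hrcC library, Atg3bp1 mock 2 or 3, or WT hrcC 2 or 3 (0.0507 to 0.167). GSTF10 lost its call without Atg3bp1 hrcC 1 or 2 or Atg3bp1 mock 2 or 3 (0.0611 to 0.0786). GSTF11 lost its call without Atg3bp1 hrcC 2 or 3 or any Atg3bp1 mock library (0.0599 to 0.106). GSTU6 lost its call without any Atg3bp1 hrcC library, Atg3bp1 mock 2 or 3, or WT mock 3 (0.0594 to 0.149), and GSTU11 without Atg3bp1 hrcC 1 or 3 or Atg3bp1 mock 3 (0.0518 to 0.0682). The direction of each stayed the same. Calls were also gained. GSTF2 passed in WT without WT mock 2 (adjusted p = 0.0438), GSTU11 in WT without WT hrcC 1 (0.0225) and GSTU16 in WT without WT mock 1 (0.0175). GSTU5 passed in Atg3bp1 without WT hrcC 1, WT mock 1 or WT mock 2 (0.0112 to 0.0435), and GSTF9 in Atg3bp1 without WT mock 1 or 3 (0.0111 to 0.0305). GSTU22 was called lower in Atg3bp1 without Atg3bp1 mock 3 or WT hrcC 1 (0.0227 to 0.0375), and GSTF14 in WT without WT hrcC 1 (-1.21, adjusted p = 0.0325).

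**Figure D3:**
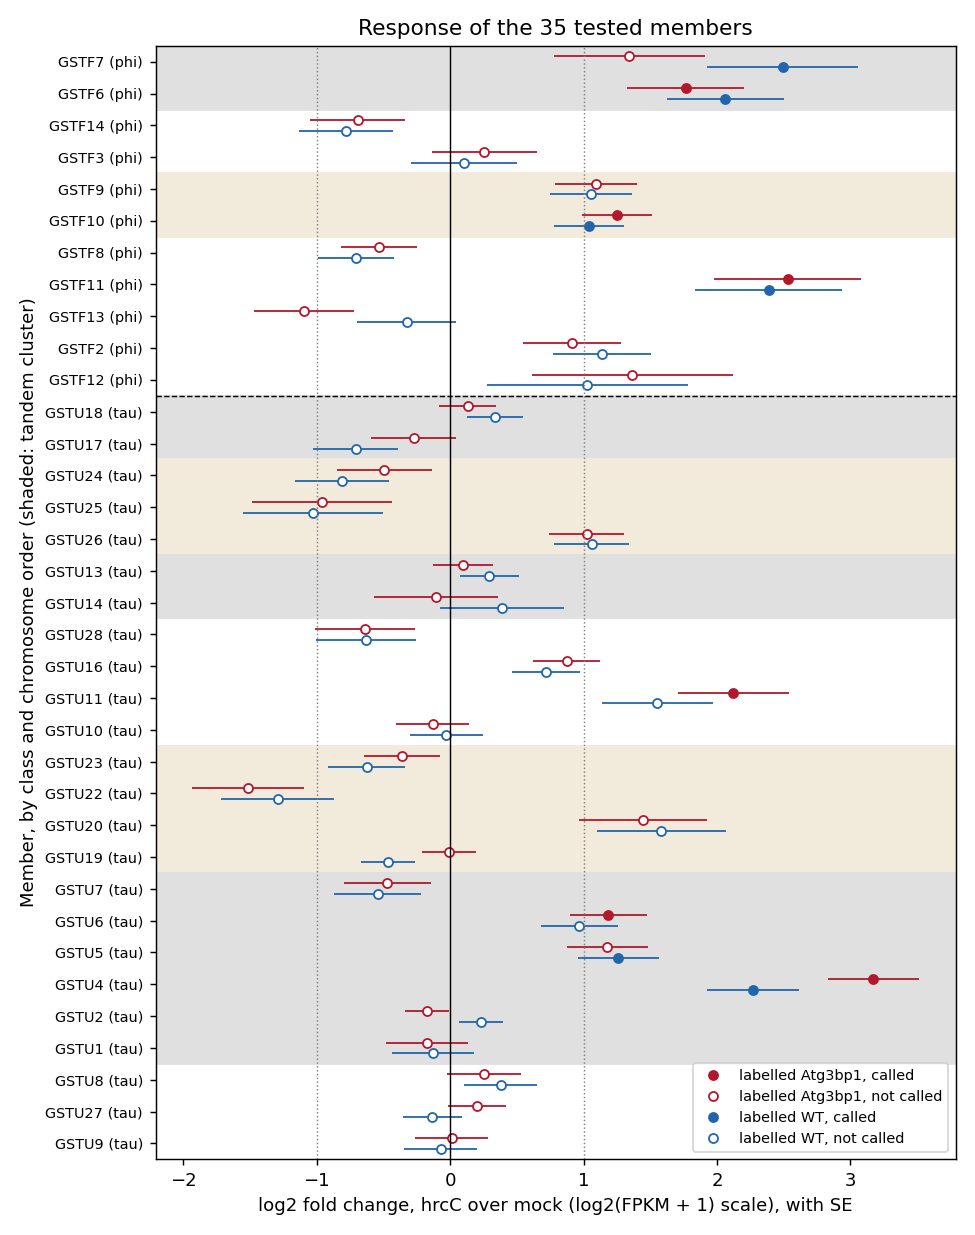
Limma log2 fold change of hrcC over mock with its SE (horizontal axis) for the 35 tested members, by class and chromosome order, for libraries labelled Atg3bp1 and WT, with filled points for calls, dotted lines at 2-fold and shading for tandem clusters. In its cluster, GSTU4 is at 3.17 in Atg3bp1 and 2.27 in WT. GSTU5 is at 1.18 and 1.26 and GSTU6 at 1.19 and 0.97. GSTU2 and GSTU1 are close to 0, and GSTU7 is at -0.47 and -0.54.

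In the GSTU1 to GSTU7 cluster the calls were not shared by all neighbours. Around the called GSTU4, GSTU5 and GSTU6, the members GSTU1, GSTU2 and GSTU7 were not called. GSTU1 was at 15.4 ± 3.43 FPKM in Atg3bp1 hrcC and 19.0 ± 9.31 FPKM in Atg3bp1 mock, and at 17.0 ± 3.52 FPKM in WT hrcC and 18.6 ± 0.888 FPKM in WT mock (SD, n = 3 each). GSTU2 was at 4.16 ± 0.184 FPKM in Atg3bp1 hrcC and 4.99 ± 0.954 FPKM in Atg3bp1 mock, and at 6.50 ± 1.48 FPKM in WT hrcC and 5.49 ± 1.61 FPKM in WT mock. GSTU7 was at 21.8 ± 5.16 FPKM in Atg3bp1 hrcC and 33.0 ± 13.9 FPKM in Atg3bp1 mock, and at 27.4 ± 4.59 FPKM in WT hrcC and 42.2 ± 16.6 FPKM in WT mock. None of the 3 was called in any comparison. The untested GSTU3, the gene next to GSTU4, was at 1.53, 1.19 and 0.164 FPKM in Atg3bp1 hrcC and at 0.128 FPKM or less in Atg3bp1 mock. It was at 0.0907, 0.198 and 0.263 FPKM in WT hrcC, against 0, 0 and 0.0214 FPKM in WT mock, so its hrcC libraries lay above mock in both genotypes. GSTU12, the neighbour of GSTU11, was at 0.677 ± 0.103 FPKM in Atg3bp1 hrcC and 0.296 ± 0.402 FPKM in Atg3bp1 mock, and at 0.354 ± 0.373 FPKM in WT hrcC and 0.0475 ± 0.0823 FPKM in WT mock. Both low genes were below the filter and were given no test.

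Since several members had missed the threshold in 1 or both genotypes, the mean response over both genotypes was also fitted. This comparison was chosen after the data had been seen, used the same libraries and is not independent of the counts above. GSTF2, GSTF9, GSTU20, GSTU22 and GSTU26, which it added to the calls, had been called in neither genotype. Their limma adjusted p there lay between 0.0570 for GSTU26 in WT and 0.245 for GSTF2 in Atg3bp1. It called 12 members higher (background 3.28% of all tested genes) and 1 lower (background 0.705%). The higher members were GSTF2, GSTF6, GSTF7, GSTF9, GSTF10 and GSTF11 of the phi class and GSTU4, GSTU5, GSTU6, GSTU11, GSTU20 and GSTU26 of the tau class. Here too GSTU11 had passed the filter only through its hrcC libraries. Of the 12 higher members, 10 were among the 23 tested in tandem clusters and 2, GSTF2 and GSTF11, among the 12 that stood alone. At an unadjusted p under 0.05 it gave 14 higher (10.1% of all genes) and 9 lower (13%). The size was 2.72 on the log2 scale for GSTU4 (SE 0.243, limma adjusted p = 1.41e-05), for GSTF11 2.46 (SE 0.389, adjusted p = 0.00144) and for GSTF6 1.91 (SE 0.309, adjusted p = 0.00167). These 3 and GSTF7, GSTF10, GSTU5 and GSTU20 were called under all alternatives run, as was the lower member GSTU22.

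GSTU20 (AT1G78370), the second most abundant tau member and known to interact with the jasmonate-conjugating enzyme JAR1, was at 120, 187 and 180 FPKM in Atg3bp1 hrcC, against 72.1, 75.1 and 38.5 FPKM in Atg3bp1 mock. It was at 243, 271 and 321 FPKM in WT hrcC, against 206, 72.6 and 51.7 FPKM in WT mock. The hrcC libraries were above mock in both genotypes, and WT mock replicate 1 was far above the other mock libraries. Its mean response was 1.51 (SE 0.341, limma adjusted p = 0.0146). Its single-genotype changes of 1.45 in Atg3bp1 (adjusted p = 0.150) and 1.58 in WT (adjusted p = 0.101) both passed without WT mock replicate 1, at adjusted p of 0.0123 and 0.00157. The most abundant tau member, GSTU19, its neighbour, was at 367, 341 and 279 FPKM in Atg3bp1 hrcC, against 419, 348 and 264 FPKM in Atg3bp1 mock. It was at 399, 327 and 349 FPKM in WT hrcC, against 452, 638 and 422 FPKM in WT mock. These overlapped in Atg3bp1 and were lower in WT hrcC, with log2 fold changes of -0.01 (adjusted p = 0.993) and -0.47 (adjusted p = 0.254) that were not called.

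GSTU22 (AT1G78340) of the same cluster was the member called lower in the mean response. It was at 7.27, 10.4 and 7.33 FPKM in Atg3bp1 hrcC, against 42.7, 31.3 and 12.7 FPKM in Atg3bp1 mock. It was at 8.37, 17.1 and 16.3 FPKM in WT hrcC, against 41.2, 40.5 and 24.3 FPKM in WT mock. All hrcC libraries lay below mock of the same genotype. The mean response was -1.40 (SE 0.298, limma adjusted p = 0.0102), and the single-genotype changes were -1.52 in Atg3bp1 (adjusted p = 0.0748) and -1.29 in WT (adjusted p = 0.124), neither called. GSTU23 beside it was at 2.34 ± 1.21 FPKM in Atg3bp1 hrcC and 3.26 ± 0.987 FPKM in Atg3bp1 mock, and at 2.14 ± 0.564 FPKM in WT hrcC and 3.89 ± 1.15 FPKM in WT mock. It was not called. The untested GSTU21, between GSTU20 and GSTU22, was at 0.258 ± 0.0830 FPKM in Atg3bp1 hrcC and 0.0414 ± 0.0716 FPKM in Atg3bp1 mock. It was at 0.0306 ± 0.0265 FPKM in WT hrcC and 0 in all WT mock libraries. The cluster GSTU19 to GSTU23 thus held 1 member higher and 1 lower in the mean response.

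The cluster GSTU24 to GSTU26 was mixed in sign too. GSTU26 (AT1G17190) was at 46.0, 44.9 and 30.3 FPKM in Atg3bp1 hrcC, against 24.1, 21.9 and 14.0 FPKM in Atg3bp1 mock. It was at 28.2, 51.7 and 45.2 FPKM in WT hrcC, against 14.6, 22.4 and 20.8 FPKM in WT mock. The hrcC libraries were higher in both genotypes, and the mean response was 1.04 (SE 0.199, limma adjusted p = 0.00511). It was under 2-fold with the third Atg3bp1 mock library left out (0.95), and likewise for the second (0.92) or the third (0.99) of the WT hrcC libraries. In Atg3bp1 alone GSTU26 passed without WT hrcC 1 or 2, and in WT alone without WT hrcC 1. GSTU24 and GSTU25, known for conjugating the explosive TNT, had lower means with hrcC than in mock and were not called. GSTU24 was at 26.6 ± 10.9 FPKM in Atg3bp1 hrcC and 39.8 ± 19.7 FPKM in Atg3bp1 mock. In WT it was at 28.4 ± 2.81 FPKM with hrcC and 52.4 ± 18.1 FPKM in mock. GSTU25 was at 18.9 ± 6.13 FPKM in Atg3bp1 hrcC and 46.3 ± 29.2 FPKM in Atg3bp1 mock, and at 25.3 ± 11.2 FPKM in WT hrcC and 50.9 ± 14.9 FPKM in WT mock (mean response -0.99, adjusted p = 0.125). Without Atg3bp1 mock replicate 3, at 13.2 FPKM, it was -1.33 with an adjusted p of 0.0123.

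Of the other members called higher in the mean response, GSTF2, a phi enzyme known to bind indole compounds, was at 271, 204 and 193 FPKM in Atg3bp1 hrcC, against 170, 141 and 70.5 FPKM in Atg3bp1 mock. It was at 276, 131 and 120 FPKM in WT hrcC, against 46.5, 128 and 67.4 FPKM in WT mock. WT hrcC and WT mock overlapped. Its mean response of 1.03 (SE 0.258, limma adjusted p = 0.0260) was lost without Atg3bp1 hrcC 1 or 3, Atg3bp1 mock 3, WT hrcC 1 or WT mock 1 or 3 (adjusted p 0.0449 to 0.0759, where the lowest failed on the fold alone). That of GSTF9 was 1.07 (SE 0.217, adjusted p = 0.00755) and was 0.98 without Atg3bp1 mock replicate 3 and 0.90 without WT mock replicate 3. That of GSTU6, 1.08 (SE 0.204, adjusted p = 0.00498), was 0.91 without Atg3bp1 mock replicate 3. GSTF7 (1.92, SE 0.399, adjusted p = 0.00910), GSTF10 (1.15, SE 0.185, adjusted p = 0.00167), GSTU5 (1.22, SE 0.215, adjusted p = 0.00309) and GSTU11 (1.84, SE 0.293, adjusted p = 0.00153) were called with no library left out changing that. GSTU16 had an adjusted p of 0.0146 at 0.80, under 2-fold.

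The remaining phi members had no called response with all libraries in the fit. GSTF8, whose promoter is a known stress reporter, was at 60.7, 71.7 and 65.3 FPKM in Atg3bp1 hrcC, against 131, 113 and 63.3 FPKM in Atg3bp1 mock. It was at 62.5, 72.1 and 77.0 FPKM in WT hrcC, against 106, 165 and 88.8 FPKM in WT mock. WT hrcC lay below WT mock throughout, with a log2 fold change of -0.71 (SE 0.284, adjusted p = 0.219), and the Atg3bp1 libraries overlapped (-0.53, SE 0.284, adjusted p = 0.427). GSTF12, known as TT19 and needed for anthocyanin accumulation in the vacuole, was at 5.71, 15.5 and 11.8 FPKM in Atg3bp1 hrcC, against 5.70, 4.38 and 1.54 FPKM in Atg3bp1 mock. It was at 18.5, 36.4 and 26.5 FPKM in WT hrcC, against 50.3, 8.16 and 3.93 FPKM in WT mock. WT mock replicate 1 was the highest library of all, so WT groups overlapped, and the mean response (adjusted p = 0.202) was 1.73 with an adjusted p of 0.00680 without that library, where GSTF12 was also called higher in WT alone. GSTF3, GSTF13 and GSTF14 averaged under 6 FPKM in each group, and their log2 fold changes ran between -1.10 and 0.26.

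Among the other tested tau members, GSTU8, GSTU9, GSTU10, GSTU13, GSTU14, GSTU17, GSTU18, GSTU27 and GSTU28 were not called in either genotype. Their log2 fold changes in both genotypes ran between -0.71 for GSTU17 in WT and 0.39 for GSTU14 in WT. GSTU13, a member with a known role in indole glucosinolate breakdown, was at 32.3 ± 7.26 FPKM in Atg3bp1 hrcC and 31.1 ± 8.24 FPKM in Atg3bp1 mock, and at 42.0 ± 9.37 FPKM in WT hrcC and 33.9 ± 5.53 FPKM in WT mock (SD, n = 3 each). GSTU17, a member known in light and abscisic acid responses, was at 36.9, 37.3 and 28.7 FPKM in Atg3bp1 hrcC, against 48.9, 41.6 and 37.4 FPKM in Atg3bp1 mock. It was at 40.0, 44.6 and 57.8 FPKM in WT hrcC, against 123, 67.9 and 55.9 FPKM in WT mock. WT mock replicate 1 was again the highest of all libraries.

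**Figure D4:**
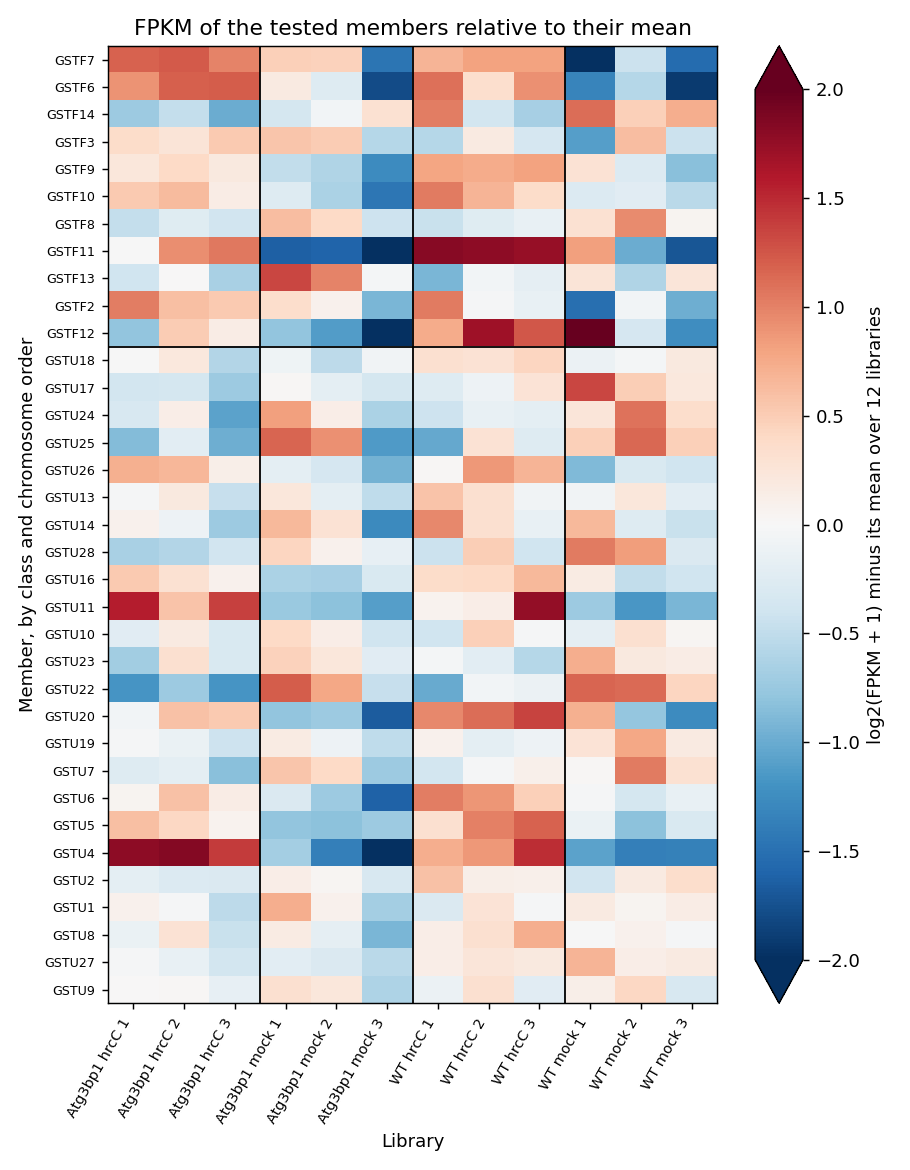
Level of each tested member in each of the 12 libraries, as log2(FPKM + 1) minus its mean over the libraries (color, from -2 to 2 and beyond), with groups side by side and members by class and chromosome order. Atg3bp1 mock replicate 3 is low for many members, with a phi sum of 406 FPKM, and WT mock replicate 1 is high for GSTF11 at 14.9 FPKM and GSTF12 at 50.3 FPKM.

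Between the libraries labelled Atg3bp1 and WT, in which AtG3BP1 goes against the labels, no member was called. In mock, 0 were called higher (background 0.921%) and 0 lower (background 0.0583%), while limma gave 3 higher (11.8% of all genes) and 2 lower (9.34%) at an unadjusted p under 0.05. The 3 were GSTF7 (1.67, SE 0.565, adjusted p = 0.126), GSTF13 (0.88, SE 0.373, adjusted p = 0.206) and GSTF2 (0.81, SE 0.364, adjusted p = 0.228). The 2 were GSTU17 (-0.73, SE 0.319, adjusted p = 0.217) and GSTU27 (-0.56, SE 0.219, adjusted p = 0.176). In FPKM as deposited, the Atg3bp1 mock libraries did not lie above all WT mock libraries for any member, against 9.45% of all genes. They lay below them for GSTF14, GSTU17, GSTU19 and GSTU27, against 17.1% of all genes. With hrcC, 0 were called higher and 0 lower (background 0.00583% each), with 1 higher (3.08% of all genes) and 1 lower (2.34%) at an unadjusted p under 0.05 in limma. These were GSTU4 (0.79, SE 0.343, adjusted p = 0.904) and GSTU2 (-0.39, SE 0.163, adjusted p = 0.904).

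The level of GSTF11 was 14.0 ± 5.25 FPKM in Atg3bp1 hrcC and 30.1 ± 0.731 FPKM in WT hrcC (SD, n = 3 each), and all 3 libraries labelled Atg3bp1 were lower. That difference was -0.97 (SE 0.551, 95% interval -2.17 to 0.22, adjusted p = 0.932) in limma. In FPKM as deposited, Atg3bp1 hrcC libraries lay below WT hrcC libraries for 8 members, against 10.6% of all genes. They lay above for GSTF3 and GSTF7, against 2.37%. The scaling factors averaged 0.942 in Atg3bp1 hrcC and 1.05 in WT hrcC, and 0.964 in Atg3bp1 mock and 1.06 in WT mock. Values as deposited thus lean lower in Atg3bp1. The mean difference over both treatments, also added after the data had been seen, called 0 members, higher (background 0.629%) or lower (background 0.035%), with 3 higher (11.4% of all genes) and 6 lower (10.1%) at an unadjusted p under 0.05 in limma. Without rescaling, the median of all genes was -0.12 in mock and -0.15 with hrcC, against -0.02 in each with rescaling. The seed storage gene PAP85 was higher in Atg3bp1 mock, at 3.16 ± 0.636 FPKM, than in WT mock, at 0.102 ± 0.0487 FPKM (1.96, adjusted p = 0.00912), and its part in these comparisons was not tested. With hrcC, PAP85 was at 2.31 ± 0.507 FPKM in Atg3bp1 and 0.319 ± 0.470 FPKM in WT. Of the 6 seed markers only 1, PAP85, passed the filter. CRA1, SESA1 and SESA2 had group means of 0.250 FPKM or less, and CRU2 and CRU3 were at 0 in all libraries.

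The response to hrcC was not shown to differ between genotypes for any member. The interaction called 0 higher and 0 lower (background 0% in each direction), and 0 members had an unadjusted p under 0.05, against 1.44% of all genes higher and 2.96% lower. GSTU4 had 0.90 (SE 0.485, 95% interval -0.16 to 1.96, limma adjusted p = 0.991), so a larger response in Atg3bp1 of up to that bound was not told apart from none. GSTF7 had -1.15 (SE 0.799, interval -2.89 to 0.59, adjusted p = 0.991). The calls of GSTF7 and GSTU5 in WT alone and of GSTU6 and GSTU11 in Atg3bp1 alone are thus no sign of a difference.

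Genes that supply or use glutathione were taken from lists made with earlier results of these data known. Of the other glutathione transferase genes, 12 of 14 were tested, and 1 was called higher and 0 lower in each genotype. It was DHAR1, a dehydroascorbate reductase that recycles ascorbate with glutathione. DHAR1 was at 550 ± 83.9 FPKM in Atg3bp1 hrcC and 108 ± 36.2 FPKM in Atg3bp1 mock, and at 678 ± 60.8 FPKM in WT hrcC and 127 ± 27.7 FPKM in WT mock (SD, n = 3 each). DHAR1 rose by 2.41 on the log2 scale (limma adjusted p = 0.000252) in Atg3bp1 and 2.43 (adjusted p = 0.000226) in WT. The medians of this list were 0.08 in Atg3bp1 and -0.03 in WT.

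Of the 13 genes of glutathione synthesis, reduction, turnover and conjugate transport, 12 were tested, with 3 called higher in Atg3bp1 and 2 in WT and 0 lower. They had medians of 0.41 in Atg3bp1 and 0.29 in WT. GGP1, a gamma-glutamyl peptidase that processes glutathione conjugates, was at 76.4 ± 1.37 FPKM in Atg3bp1 hrcC and 15.7 ± 2.16 FPKM in Atg3bp1 mock, and at 107 ± 12.5 FPKM in WT hrcC and 27.3 ± 6.97 FPKM in WT mock. It rose by 2.26 (limma adjusted p = 0.000117) in Atg3bp1 and 1.96 (adjusted p = 0.000355) in WT on the log2 scale. GSH2, glutathione synthetase, rose by 1.23 (adjusted p = 0.0261) in Atg3bp1 and 1.11 (adjusted p = 0.0442) in WT. GGT4, which degrades glutathione conjugates in the vacuole, was called in Atg3bp1 alone (1.07, adjusted p = 0.00681).

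Of the 11 non-GST genes known for induction by xenobiotics, 2 were called higher and 0 lower in each genotype, with medians of 0.24 in Atg3bp1 and -0.08 in WT. CYP81D11, a cytochrome P450, rose by 2.36 (limma adjusted p = 0.00166) in Atg3bp1 and 2.27 (adjusted p = 0.00203) in WT, and DTX1, a detoxification efflux carrier, by 1.56 (adjusted p = 0.00627) in Atg3bp1 and 1.41 (adjusted p = 0.0118) in WT. Of 8 genes, the TGA factors and their partner SCL14, 0 were called in either genotype, with medians of -0.03 in Atg3bp1 and -0.13 in WT.

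Markers of the organs in a whole seedling were examined beside the responses. The 8 root markers were detected and summed to between 17.7 and 32.0 FPKM in Atg3bp1 hrcC, against 25.6 to 56.2 FPKM in Atg3bp1 mock, and to between 16.8 and 32.6 FPKM in WT hrcC, against 28.7 to 38.7 FPKM in WT mock. Their median log2 fold change was -0.52 in both genotypes, with 0 of 8 called. The 8 shoot markers summed to between 20545 and 28392 FPKM in Atg3bp1 hrcC, against 25926 to 33599 FPKM in Atg3bp1 mock, and to between 24759 and 31322 FPKM in WT hrcC, against 31081 to 42502 FPKM in WT mock. Of these, 0 were called in either genotype, though RBCS3B was in the mean response (-1.04, adjusted p = 0.0155), with medians of -0.01 in Atg3bp1 and -0.13 in WT. The part of these shifts in the responses of the members was not tested.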

How the data were processed

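The authors prepared stranded mRNA libraries, sequenced them in pairs, trimmed reads with Trimmomatic, placed them on TAIR10 by TopHat, which kept 1 alignment per read, and computed with Cufflinks the deposited FPKM of each gene in each replicate. A read that fits close copies can thus be placed on either. The deposited FPKM hold no counts, so the reads behind a value and its counting error are unknown, though the study states an approximate read number per sample, and p-values rest on 3 libraries per group.

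FPKM were divided by upper-quartile factors (75th percentile of the 23870 genes above 0 in at least 1 library). Genes averaging 1 FPKM or more (17158) were fitted as log2(FPKM + 1) over all 4 groups with limma 3.58.1 in R 4.3.3 (trend, empirical Bayes), with Benjamini-Hochberg adjustment within each contrast. Group means, SDs, class sums and counts of libraries lying above or below others are in FPKM as deposited, without the factors. The code was tested on simulated data.

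Genes named with values in every library were those called in a contrast, the mean response included, and the 3 most abundant members of each class; tandem neighbours of called members are given by group, and others by ranges and counts. GSTF8, GSTF12 and GSTU17 were chosen after their values were seen, as were GSTU13 and AT2G01021. Of background lists, called genes were named. The members and lists were chosen with earlier results of these data known. Positions, coding identity (in place of a planned protein identity) and windows before gene starts came from the TAIR10.1 annotation with Biopython 1.88 in Python 3.11.15, and 26703 of 27371 identifiers matched. The window before 1 gene start is not reported here.

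Alternatives were no rescaling, median-ratio or quantile scaling, pseudocounts of 0.1 and 0.5, a filter at 5 FPKM or none, no trend, the replicate number as a block, pairs of groups fitted alone, a term for the 3 libraries with factors above 1.1 (WT mock 2 and 3 and WT hrcC 1), an unadjusted p, an adjusted p without the fold threshold, and each library left out. Correlations over genes of the deviations of same-numbered libraries from their group means were above 0.1 in every pair only between Atg3bp1 mock and WT mock (0.375, 0.102 and 0.315). Between Atg3bp1 hrcC and WT hrcC they were 0.0423, 0.430 and 0.105. The pairing there comes from these values and not from a label, and the block left that comparison at 0 calls.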

Additional observations from a re-analysis of the deposited data

How the results depend on the processing

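No direction of a called value was reversed under any alternative run. With the replicate block, 5 members were called higher in Atg3bp1, against 6 without it, and 4 in WT, against 6, and all other member counts were as without it. Over all genes, the block gave 418 higher in Atg3bp1, against 441, and 452 in WT, against 492. Without a filter, 3 were called higher in Atg3bp1 and 2 in WT, against 399 and 412 of the 23870 genes then tested. With pairs of groups fitted alone, WT had 2 higher, where 267 of all genes were. Atg3bp1 then had 10 calls, GSTU22 lower and all others higher, where 709 of all genes were called (540 higher). With the term for the 3 libraries with high scaling factors, a choice that followed from earlier results of these data, Atg3bp1 had 10 higher and 1 lower, WT had 2 lower, mock had 3 lower in Atg3bp1 than in WT (GSTF11, GSTF12 and GSTU17), and the mean genotype difference had 1 higher and 3 lower. Those 3 libraries are all labelled WT, so the term is partly mixed with genotype. It leaves WT mock replicate 1 as the only WT mock library without it, the highest of that group for GSTF11, GSTF12 and GSTU17. The mock calls of these 3 members thus lean on 1 library. Under this term calls over all genes grew too, to 544 (254 higher) in mock, against 168 (158 higher), and to 275 (166 higher) in the mean genotype difference, against 114 (108 higher). They were 657 (505 higher) in Atg3bp1 and 885 (579 higher) in WT. With an unadjusted p and 2-fold, WT had 11 higher and 1 lower, Atg3bp1 11 higher and 2 lower, mock 1 higher by genotype, and the mean genotype difference 1 higher and 2 lower. Of all 17158 tested genes, this rule called 849 (678 higher) in WT and 795 (581 higher) in Atg3bp1. By genotype it called 537 (457 higher) in mock and 230 (196 higher) in the mean difference.

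With 1 library left out, the higher calls ran between 1 and 9 in Atg3bp1 and between 1 and 9 in WT, the lower calls between 0 and 1 in each, and the mean response between 8 and 12 higher and between 1 and 2 lower. Calls over all genes then ran between 351 and 606 in Atg3bp1, between 416 and 695 in WT and between 616 and 708 in the mean response. The lower call in WT appeared without WT hrcC replicate 1, in Atg3bp1 without Atg3bp1 mock replicate 3 or WT hrcC replicate 1, and the second in the mean response without Atg3bp1 mock replicate 3. The cause was not tested. A fit without 3 mock libraries together was also run after the data had been seen. It is not reported, since those libraries had been picked for their levels of the members. The reads behind single values are unknown, so what depth limits could not be stated for single genes, and fold changes of members under a few FPKM are understated by the pseudocount.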
